A study of Mus musculus with 6 samples.

Results

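The genes described here are 34 genes of the stress response of the endoplasmic reticulum (ER), out of 37991 gene rows in each count file. The list names genes by their part in the response and was drawn up with earlier results of these data known, and all 34 were found by Ensembl identifier. They form an ER folding arm of 17 genes, which holds chaperones, oxidoreductases, degradation factors and the transcription factors Xbp1 and Atf6, and an amino acid response arm of 17 genes around the transcription factor Atf4. The amino acid response arm holds amino acid enzymes and carriers and the feedback genes of ATF4.

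RNA was sequenced from cells with Nestin-GFP fluorescence, sorted out of digested dermis with the subcutaneous white fat beneath it, from mice 3 days old. The control group, labelled Nes-GFP+ cells, was 3 mice with the Nestin-GFP reporter, and the label names no other allele. The mutant group, labelled Nes-GFP;Nes-Cre;PDGFRα+/[S]D842V, was 3 mice with the reporter, Nestin-Cre and 1 Pdgfra allele with the activating change D842V. All 6 mice carried the reporter. The control label names no Nestin-Cre, so effects of the recombinase and of the allele cannot be told apart, and Nestin-Cre acts in cells, or descendants of cells, that used the Nestin regulatory sequence. What "[S]" stands for, and any strain, sex, litter or batch, was not stated in the labels.

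Gene counts per library ran from 11912469 to 18792939. The targeted gene Pdgfra was at 819 to 856 CPM (counts scaled to library depth) in controls and 345 to 368 CPM in mutants, a log2 fold change of -1.24 (edgeR adjusted p = 2.76e-06), so it separated the labelled groups, although counts do not show which allele was read. The series calls the cells pericytes. Of 11 pericyte markers all were detected in every library, and their summed level was 1251 to 1570 CPM in controls and 1205 to 1499 CPM in mutants. The summed level of 8 fibroblast and adipose progenitor markers was far higher, 42950 to 48300 CPM in controls and 34390 to 43400 CPM in mutants, most of it Col1a1. In sorted bulk cells, fewer cells of a type and less RNA per cell cannot be told apart.

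Proteins bound for secretion, the cell surface and the matrix fold in the ER with the help of chaperones, lectins and disulfide isomerases. When unfolded proteins build up, the sensors IRE1, PERK and ATF6 start the unfolded protein response. IRE1 splices Xbp1 mRNA and ATF6 is cut to release a transcription factor, and both lead to transcription of folding and degradation genes, many through a promoter sequence called the ER stress response element (ERSE). PERK, and the amino acid sensor GCN2, phosphorylate the translation factor eIF2alpha, which lowers general translation and raises translation of ATF4. ATF4 then activates genes of amino acid supply, often through the C/EBP-ATF response element. Fibroblasts and mural cells that make much collagen depend on this folding capacity.

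The promoter sequences are shown first, since 1 of the elements was found in the ER folding arm and not in the other. RefSeq promoter windows on GRCm38.p6, from 250 bases before to 50 bases after a start site, were at hand for 30 of the 34 genes, 15 in each arm. The ERSE was searched on both strands as CCAAT and CCACG with 9 bases between them. It was present in 7 of 15 ER folding genes, 46.7%, in 0 of 15 amino acid response genes, and in 37 of all 27025 genes with a window, 0.137% (17 of 10989 genes tested here, 0.155%). The sites are printed in the direction of the gene with 10 bases on either side, with the match in capitals. A match that begins with CGTGG lies on the opposite strand.

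Hspa5 (chr2:34772015-34772053, plus strand): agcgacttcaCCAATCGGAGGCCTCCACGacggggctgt
Calr (chr8:84847065-84847103, minus strand): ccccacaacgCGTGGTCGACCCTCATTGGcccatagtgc
Hsp90b1, farther site (chr10:86705628-86705666, minus strand): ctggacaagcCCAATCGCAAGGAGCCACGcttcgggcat
Hsp90b1, nearer site (chr10:86705523-86705561, minus strand): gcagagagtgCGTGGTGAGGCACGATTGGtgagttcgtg
Canx (chr11:50325790-50325828, minus strand): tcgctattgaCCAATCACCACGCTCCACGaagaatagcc
Pdia6 (chr12:17266481-17266519, plus strand): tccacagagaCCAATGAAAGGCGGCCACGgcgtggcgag
Creld2 (chr15:88819510-88819548, plus strand): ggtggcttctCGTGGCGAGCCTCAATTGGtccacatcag
Dnajc3 (chr14:118937817-118937855, plus strand): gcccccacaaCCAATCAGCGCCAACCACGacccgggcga

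The C/EBP-ATF response element was searched as TTGCATCA on both strands. It was present in 3 of 15 amino acid response genes (Atf3, Chac1 and Slc7a11, the last with 2 matches), in 1 of 15 ER folding genes (Herpud1), and in 1.03% of all genes with a window. The looser form TGATGNAA, which includes the reverse complement of TTGCATCA, was present in 5 of 15 amino acid response genes, 33.3%, in 1 of 15 ER folding genes, and in 4.51% of all genes with a window. The unfolded protein response element, searched on both strands as TGACGTGG, which shares CGTGG with the ERSE, was in none of the 30 and in 0.714% of all genes with a window. Among genes tested here the shares were 0.701% for TTGCATCA, 2.73% for the looser form and 1.04% for TGACGTGG. The median GC content of the windows was 66.7% in the ER folding arm and 59% in the amino acid response arm. It was 52.8% over all genes and 60.7% over the genes tested. A match describes these letters and no more, and factor binding was not measured. The matches upstream of Atf3, Herpud1 and Slc7a11 are shown as the contrast to the ERSE set, again with the match in capitals.

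Atf3 (chr1:191183426-191183453, minus strand): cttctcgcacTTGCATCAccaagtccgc
Slc7a11, nearer site (chr3:50443643-50443670, minus strand): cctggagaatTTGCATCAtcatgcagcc
Herpud1 (chr8:94386307-94386334, plus strand): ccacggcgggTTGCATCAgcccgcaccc

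ER folding genes were lower in mutant cells almost throughout the arm. All 17 were tested, and 14 fell, none rose and 3 were not called (edgeR quasi-likelihood test, adjusted p under 0.05). Over all 15035 genes tested, 17.8% were called, 9.13% as lower and 8.63% as higher. The median log2 fold change (mutant over control) was -0.35 in the arm and 0.01 over all genes tested, and all 17 fold changes were negative. In 16 of the 17 every mutant library was below every control library, which held for 18.6% of all genes tested. The falls were modest, from 16% (Xbp1) to 39.7% (Sdf2l1), and the adjusted p of the called genes ran from 0.0042 to 0.0416. With control 2 left out 9 genes fell, with control 3 left out 8, with mutant 2 left out 7 and with mutant 3 left out 6, and Hspa5, Hsp90b1, Calr, Pdia4, Manf and Herpud1 fell in each of the 14 alternatives tried.

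**Figure D1:**
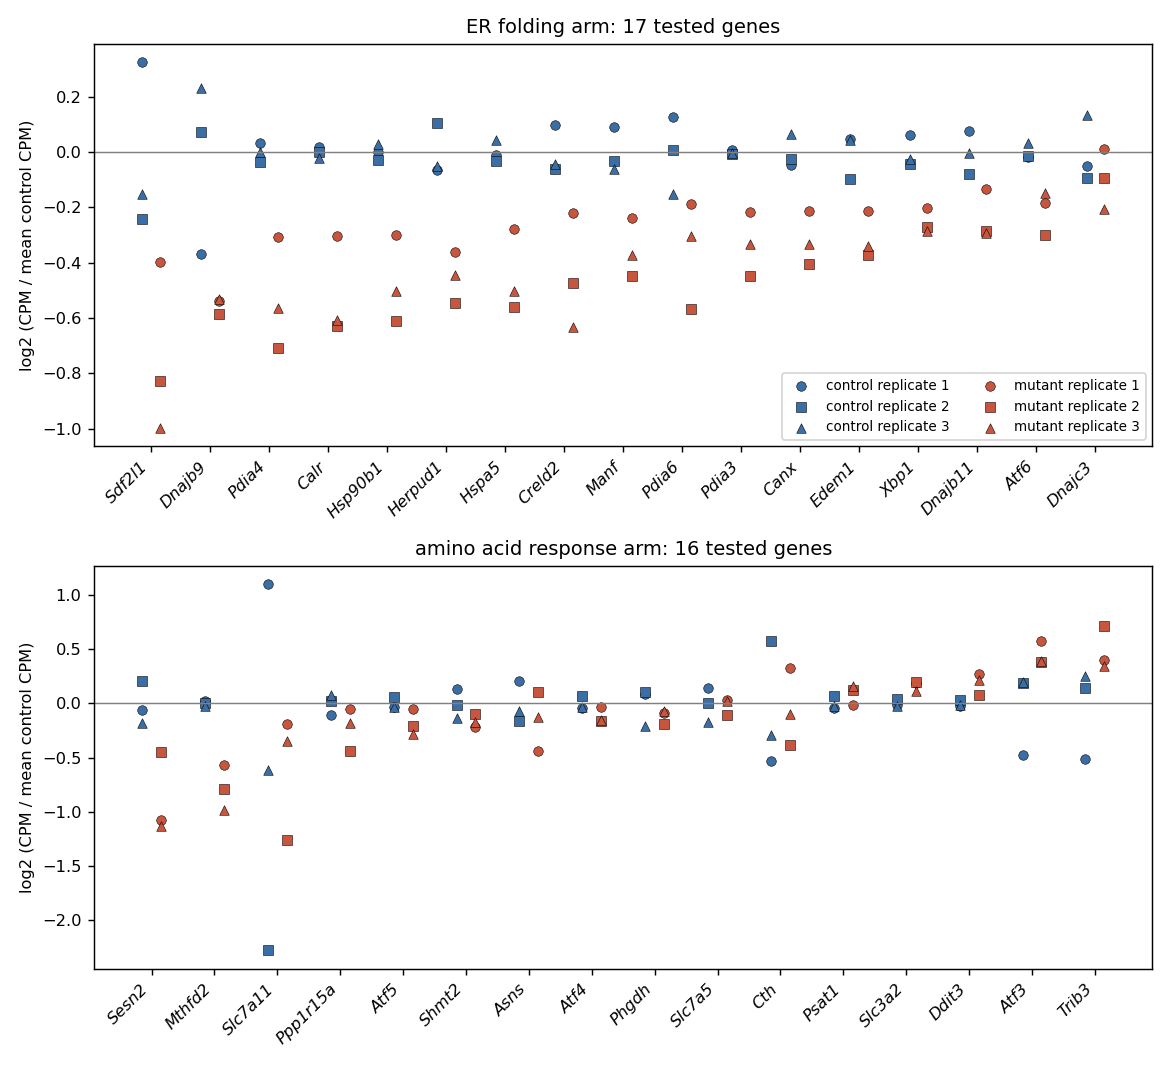
Level of each tested gene in each library, as log2 of CPM over the mean control CPM of that gene, for the ER folding arm (top) and the amino acid response arm (bottom); blue is control, red is mutant, and the marker shape gives the replicate. In 16 of 17 ER folding genes all red points lie below all blue points, while in the lower panel this holds for 3 of 16.

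The chaperones that bind nascent chains were among the most abundant genes of the set. Hspa5 (ENSMUSG00000026864), the ER HSP70 known as BiP that also holds the stress sensors inactive, was at 1128, 1112 and 1171 CPM in control replicates 1 to 3 and at 938, 771 and 803 CPM in mutant replicates 1 to 3. Its mean went from 1137 ± 30.8 to 837 ± 88.6 CPM (± SD over 3 libraries each here and throughout), a log2 fold change of -0.44 (95% interval -0.64 to -0.24, edgeR adjusted p = 0.00752). Hsp90b1 (ENSMUSG00000020048), the ER HSP90 known as GRP94, was at 675, 662 and 688 CPM in controls and at 548, 441 and 477 CPM in mutants, with a log2 fold change of -0.47 (edgeR adjusted p = 0.00528). Exons of Hsp90b1 overlap 415 bases of 1810014B01Rik on the opposite strand, and 84 bases of Gm15344 and 133 bases of Gm25745 on its own strand, in GRCm38, so its counts are less certain there. In both genes the groups were clearly separated, and mutant replicate 1 was the closest of the mutants to the controls.

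Through the arm the order of mutant replicates 2 and 3 varied, but mutant replicate 1 was the highest mutant library in 15 of the 17 genes. Its fibroblast and adipose progenitor marker sum, 43400 CPM, was also the highest of the mutants, against 34390 and 37380 CPM in mutant replicates 2 and 3. Most of that sum was the collagen gene Col1a1 (38920, 30580 and 33430 CPM in mutant replicates 1 to 3), which was not called. Of the 8 markers 2 fell, Pdgfra and Dpp4, none rose, and 6 were not called. That is 25% called, against 17.8% over all genes tested. The uncalled log2 fold changes were -0.27 (Lum), -0.26 (Col1a1), -0.15 (Cd34), -0.04 (Dcn), 0.16 (Dpt) and 0.46 (Pi16). The 8 markers had a median of -0.20, with 6 negative and 2 positive values. Their part in the result was not tested. The summed level of the 17 ER folding genes was 5176, 5079 and 5201 CPM in control replicates 1 to 3 and 4320, 3599 and 3792 CPM in mutant replicates 1 to 3. The controls thus lay close together and the mutants were both lower and more spread.

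Calr and Canx encode calreticulin and calnexin, the lectins that hold newly glycosylated proteins in the folding cycle. Calr (ENSMUSG00000003814), with the highest level per length of the set at 257.5 CPM per kilobase of exon over all libraries, was at 882, 870 and 858 CPM in controls and at 705, 563 and 571 CPM in mutants. The log2 fold change of Calr was -0.50 (interval -0.71 to -0.30, edgeR adjusted p = 0.00493). Canx (ENSMUSG00000020368), the membrane-bound member of the pair, was at 516, 525 and 558 CPM in controls and at 460, 402 and 424 CPM in mutants. Both fell, Canx by the smaller amount, 0.31 on the log2 scale (edgeR adjusted p = 0.0196). Canx lost its call when control 2, control 3, mutant 2 or mutant 3 was left out (adjusted p up to 0.0752).

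All 3 protein disulfide isomerases of the set, which form and rearrange disulfide bonds, fell. Pdia4 (ENSMUSG00000025823) was at 212, 203 and 208 CPM in controls and at 168, 127 and 141 CPM in mutants (-0.52 on the log2 scale, edgeR adjusted p = 0.0042). Pdia3 (ENSMUSG00000027248), the partner of calreticulin and calnexin, was at 653, 646 and 648 CPM in controls and at 559, 476 and 515 CPM in mutants (-0.33, edgeR adjusted p = 0.0171). Pdia6 (ENSMUSG00000020571) was at 334.5, 308 and 276 CPM in controls and at 269, 207 and 248 CPM in mutants (-0.34, edgeR adjusted p = 0.0416). The groups were far apart for Pdia4 and Pdia3, whereas in Pdia6 the highest mutant came close to the lowest control. Pdia3 lost its call when control 2, control 3, mutant 2 or mutant 3 was left out (adjusted p up to 0.0643), and Pdia6 when control 1, control 2, mutant 2 or mutant 3 was left out and with upper quartile scaling (up to 0.119).

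Of 4 genes for partners of BiP, 2 fell. Dnajb9 (ENSMUSG00000014905), also known as ERdj4, was at 57.1, 77.6 and 86.7 CPM in controls and at 50.9, 49.1 and 51.0 CPM in mutants (-0.55 on the log2 scale, edgeR adjusted p = 0.0219). Here it was the controls that were spread, with control replicate 1 near the mutants, and the call went with control 2, control 3 or any 1 mutant library left out (adjusted p up to 0.0808). Sdf2l1 (ENSMUSG00000022769), a low-level partner of ER co-chaperones, was at 12.3, 8.30 and 8.82 CPM in controls and at 7.44, 5.52 and 4.90 CPM in mutants (-0.73, edgeR adjusted p = 0.0257). Leaving out control 1, control 3, mutant 2 or mutant 3 ended its call (adjusted p up to 0.0964). Dnajb11 (-0.24 on the log2 scale, interval -0.41 to -0.07, edgeR adjusted p = 0.0542) and Dnajc3, which inhibits PERK (-0.09, interval -0.28 to 0.09, edgeR adjusted p = 0.477), were not called. Dnajc3 was the single ER folding gene whose groups overlapped, and its promoter window holds an ERSE match.

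Secreted and degradation factors of the unfolded protein response fell by like amounts. Manf (ENSMUSG00000032575), a small ER protein released under stress, was at 114, 104 and 102 CPM in controls and at 90.5, 78.2 and 82.5 CPM in mutants (-0.35 on the log2 scale, edgeR adjusted p = 0.012). Its exons overlap those of Dcaf1 on the opposite strand in GRCm38, and reads there cannot be told apart without the strand setting of the counting. Creld2 (ENSMUSG00000023272), a disulfide isomerase-like factor of matrix-making cells, was at 41.9, 37.5 and 38.0 CPM in controls and at 33.6, 28.2 and 25.3 CPM in mutants (-0.44, edgeR adjusted p = 0.0159, lost without mutant replicate 3, where it was 0.0722). Both were lower in every mutant library than in any control.

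Herpud1 and Edem1 serve ER-associated degradation, which returns misfolded proteins to the cytosol. Herpud1 (ENSMUSG00000031770), a membrane scaffold of that machinery, was at 59.2, 66.7 and 59.9 CPM in controls and at 48.2, 42.5 and 45.5 CPM in mutants (-0.45 on the log2 scale, edgeR adjusted p = 0.00446). Edem1 (ENSMUSG00000030104), a lectin that sorts misfolded glycoproteins, was at 89.5, 80.9 and 89.2 CPM in controls and at 74.7, 66.9 and 68.4 CPM in mutants (-0.31, edgeR adjusted p = 0.0191). The groups were separated in both, and Edem1 lost its call when control 3, mutant 2 or mutant 3 was left out (adjusted p up to 0.0768).

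Of the transcription factors of this arm, Xbp1 fell and Atf6 was not called. Xbp1 (ENSMUSG00000020484) was at 114, 106 and 107 CPM in controls and at 94.9, 90.5 and 89.7 CPM in mutants (-0.25 on the log2 scale, interval -0.41 to -0.10, edgeR adjusted p = 0.0292). Its call was lost without any 1 library other than mutant replicate 1 (largest adjusted p 0.112), and gene counts do not show how much of the mRNA was spliced. Atf6 (ENSMUSG00000026663) was at 59.8, 59.9 and 61.9 CPM in controls and at 53.3, 49.1 and 54.7 CPM in mutants (-0.21, interval -0.37 to -0.04, edgeR adjusted p = 0.0759). The groups did not overlap in either gene.

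**Figure D2:**
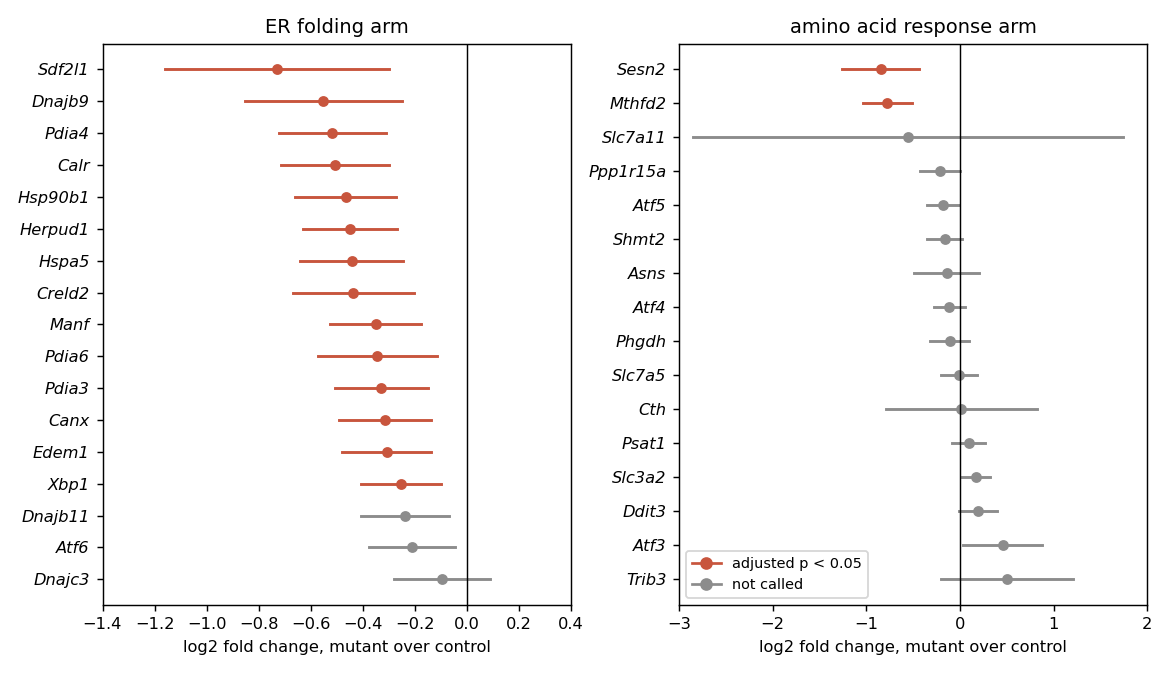
Log2 fold change of mutant over control for each tested gene with its 95% interval from the edgeR fit; red marks an adjusted p under 0.05 and the x axes of the panels differ. The 17 ER folding genes lie between -0.73 and -0.09, and the 16 amino acid response genes between -0.85 and 0.50.

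Amino acid response genes were mostly not called. Of 17 genes 16 were tested, 2 fell (Mthfd2 and Sesn2), none rose and 14 were not called. That is 12.5% called, against 17.8% over all genes tested. The median log2 fold change was -0.11, with 10 negative and 6 positive values, and leaving out control 1 gave -0.06 and control 2 gave -0.07. The groups did not overlap in 3 genes that were lower (Mthfd2, Sesn2 and Atf5) and in 4 that were higher (Atf3, Ddit3, Slc3a2 and Trib3). Over all genes tested the groups did not overlap in 18.6% as lower and in 19.2% as higher. The number of lower genes without overlap was thus near the background. The 95% interval lay within 1.5-fold of no change in 10 of the 16, while for Atf3, Trib3, Cth, Slc7a11, Sesn2 and Mthfd2 it reached further.

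Atf4 (ENSMUSG00000042406) itself was at 296, 320 and 297 CPM in controls and at 298, 272 and 274 CPM in mutants. The groups overlapped, and the log2 fold change was -0.11 (interval -0.28 to 0.05, edgeR adjusted p = 0.322). ATF4 is set mainly through translation, which read counts do not measure. Atf5 (ENSMUSG00000038539), a related factor under the same translational control, was at 114, 121 and 114 CPM in controls and at 112, 100.2 and 95.5 CPM in mutants. The log2 fold change of Atf5 was -0.18 (edgeR adjusted p = 0.141). Exons of Atf5 overlap those of neighbouring genes in GRCm38, as do those of Shmt2, so their counts are less certain.

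Atf3 and Ddit3 encode stress factors downstream of ATF4, and Ddit3 is the death-associated factor CHOP. Atf3 (ENSMUSG00000026628) was at 160, 252 and 254 CPM in controls and at 331, 290 and 292 CPM in mutants, a log2 fold change of 0.46 (interval 0.03 to 0.88, edgeR adjusted p = 0.127, with 0.0122 to 0.304 over the 14 alternatives, of which DESeq2 alone was under the threshold). Control replicate 1 was far below the other controls, and leaving it out gave a log2 fold change of 0.25 (edgeR adjusted p = 0.053). Ddit3 (ENSMUSG00000025408) was at 21.3, 22 and 21.4 CPM in controls and at 26.1, 22.8 and 25.1 CPM in mutants (0.19, interval -0.01 to 0.40, edgeR adjusted p = 0.178). In both genes every mutant library was above every control, and neither was called. The exons of Ddit3 overlap those of Mars on the opposite strand in GRCm38.

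Atf3 is also induced by cell dissociation, and the skin was held in trypsin overnight and then digested with collagenase. The summed level of 14 dissociation response genes was 6357, 10430 and 10300 CPM in control replicates 1 to 3 and 12130, 11470 and 12930 CPM in mutant replicates 1 to 3, with its lowest value in the library in which Atf3 was lowest. Of these 14 genes, 1 rose (Jun) and 3 fell, namely the heat shock genes Hspa1a, Hspa1b and Hsph1. That is 28.6% called, against 17.8% over all genes tested. Hspa1a and Hspa1b are near-identical copies, and their separate counts are uncertain. Hsph1 was at 79.2 ± 7.41 CPM in controls and 36.0 ± 2.68 CPM in mutants (-1.14 on the log2 scale, edgeR adjusted p = 3.36e-05). Their part in the results for Atf3 and the chaperones was not tested.

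Of the feedback genes of the pathway, Sesn2 fell. Ppp1r15a (ENSMUSG00000040435), known as GADD34, which brings a phosphatase to eIF2alpha, was at 331, 363 and 375 CPM in controls and at 344.5, 263 and 315 CPM in mutants (-0.21 on the log2 scale, interval -0.43 to 0.00, edgeR adjusted p = 0.155). Sesn2 (ENSMUSG00000028893), a leucine sensor and brake on mTORC1, was at 17.5, 21.0 and 16.1 CPM in controls and at 8.65, 13.4 and 8.33 CPM in mutants. It fell by 0.85 on the log2 scale (interval -1.25 to -0.44, edgeR adjusted p = 0.0122), and the call held in all 14 alternatives. Trib3, a pseudokinase that restrains ATF4, had 10 to 23 counts per library, 0.64 to 1.09 CPM in controls and 1.16 to 1.49 CPM in mutants and was not called (0.50, edgeR adjusted p = 0.311). Chac1, which degrades glutathione, had 3 to 9 counts per library and was not tested.

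Of the serine and one-carbon enzymes, 1 fell. Mthfd2 (ENSMUSG00000005667), the mitochondrial folate enzyme, was at 21.0, 20.8 and 20.5 CPM in controls and at 14.0, 12 and 10.5 CPM in mutants. With controls that nearly coincided, it fell by 0.77 on the log2 scale (interval -1.04 to -0.51, edgeR adjusted p = 0.00177), and the call held in all 14 alternatives. Phgdh and Psat1, the first steps of serine synthesis, had log2 fold changes of -0.11 (edgeR adjusted p = 0.442) and 0.10 (0.444). Shmt2, which passes the carbon of serine to folate in mitochondria, had -0.16 (edgeR adjusted p = 0.214). Their groups overlapped. Asns, the asparagine synthetase often used as a readout of ATF4, was at 9.97 to 12.9 CPM in controls and 8.24 to 12 CPM in mutants (-0.14, edgeR adjusted p = 0.576). Cth, the cysteine-forming enzyme, was near 1 CPM in both groups (0.01, interval -0.79 to 0.82).

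Amino acid carriers were not called. Slc3a2, the shared heavy chain of several carriers, was at 113 to 118 CPM in controls and 125 to 132 CPM in mutants, without overlap (0.17 on the log2 scale, edgeR adjusted p = 0.107). Its partner for large neutral amino acids, Slc7a5, was at 59.5 to 73.7 CPM and 62.1 to 68.4 CPM (-0.01, interval -0.21 to 0.18). The cystine carrier Slc7a11 was at 11.3, 1.09 and 3.45 CPM in control replicates 1 to 3 and at 4.62, 2.21 and 4.17 CPM in mutant replicates 1 to 3 (-0.55, interval -2.85 to 1.74), so control replicate 1 sets its control mean. Without that library its log2 fold change was 0.63.

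The arms were set side by side within each library. The mean log2 CPM of the 17 ER folding genes was 7.31, 7.26 and 7.30 in control replicates 1 to 3 and 7.04, 6.81 and 6.86 in mutant replicates 1 to 3. For the 16 tested amino acid response genes it was 5.02, 4.97 and 4.94 in controls and 4.96, 4.87 and 4.88 in mutants. The difference between the arms was 2.31 ± 0.0362 in controls and 2.00 ± 0.0694 in mutants (SD, n = 3 per group), lower by 0.31 in mutants, and the groups did not overlap. Scaling between libraries cancels in this difference, apart from the prior count. The ER folding mean was lower by 0.38, without overlap of the groups. The amino acid response mean was lower by 0.07, and its groups overlapped. The genes were chosen with earlier results known, so these means are given without a test.

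**Figure D3:**
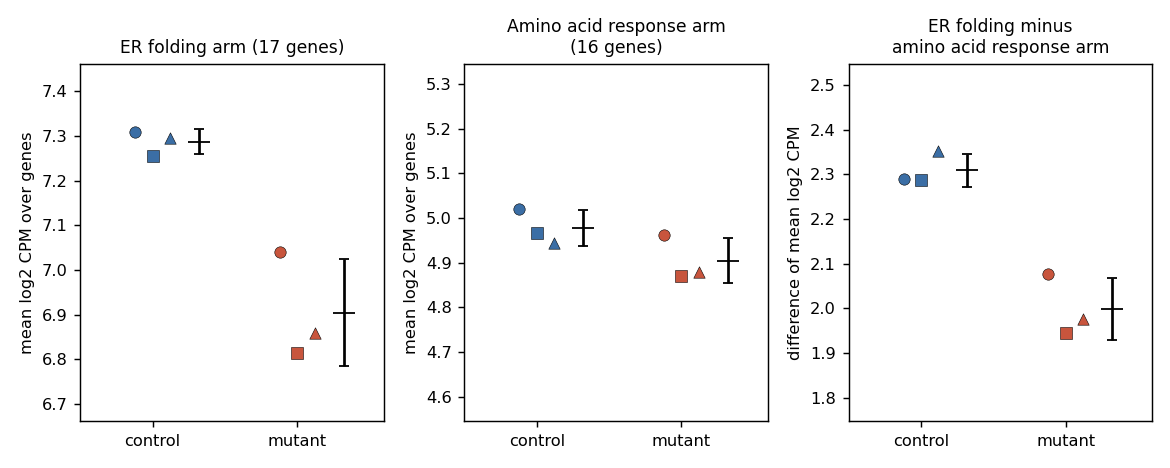
Mean log2 CPM over the tested genes of each arm, and the difference between the arms, in each library (marker shape gives the replicate; the bars are mean ± SD of 3 libraries; each y axis spans the same range). The ER folding mean is lower in mutants by 0.38, without overlap of the groups. The amino acid response mean is lower by 0.07, and there the groups overlap.

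Other genes of the pathway were read from lists made from general knowledge of the response. Of 17 other sensors and regulators 6 fell, 35.3%, and none rose, with a median log2 fold change of -0.04. The shares over all genes tested were 9.13% lower and 8.63% higher. Nfe2l2, the oxidative stress factor NRF2 and a substrate of PERK, fell from 56.7 ± 1.70 to 34.8 ± 3.78 CPM (-0.71, edgeR adjusted p = 0.000491). Creb3l1, an ER-bound factor of collagen-secreting cells, fell by 0.38 and Bcl2l11, a pro-apoptotic gene, by 0.42. The sensor genes Ern1 (IRE1, -0.32) and Eif2ak3 (PERK, -0.23), chosen after their values were seen, fell as well. Leaving out control 2 or control 3 gave a count of 2, leaving out mutant 2 gave 3 and leaving out mutant 3 gave 1, and upper quartile scaling and DESeq2 gave 3 each. Ern1 and Eif2ak3 each lost the call in 8 of 14 alternatives, Creb3l1 when control 3, mutant 2 or mutant 3 was left out, and Bcl2l11 when control 2 or mutant 3 was.

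Other folding and degradation genes were mixed. Of 38 tested 6 fell, 15.8%, and 3 rose, 7.89%, with a median of -0.10, and 29 of the 38 fold changes were negative. Among all genes tested 9.13% fell and 8.63% rose, so the share of rises was near that of all genes. Edem3, a mannosidase of the degradation pathway, fell from 92.3 ± 1.04 to 65.4 ± 4.25 CPM (-0.50, edgeR adjusted p = 0.00145), Uggt1, which checks the folding of glycoproteins, by 0.35 and the ubiquitin ligase Syvn1 (HRD1) by 0.36. The chaperone Hyou1 fell by 0.36 (lost without mutant replicate 3, adjusted p 0.0695). The 3 rises were Nploc4, a cofactor in extraction of proteins from the ER (0.33, edgeR adjusted p = 0.0122), Edem2, a degradation factor related to Edem1 (0.30, adjusted p = 0.0414), and the ER lectin gene Erlec1 (0.25, adjusted p = 0.0449). Hyou1 and the rises were chosen after their values were seen. The number that fell was 3 without mutant replicate 3, and the number that rose was 0 without control replicate 2 and 1 without any other library and with DESeq2.

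**Figure D4:**
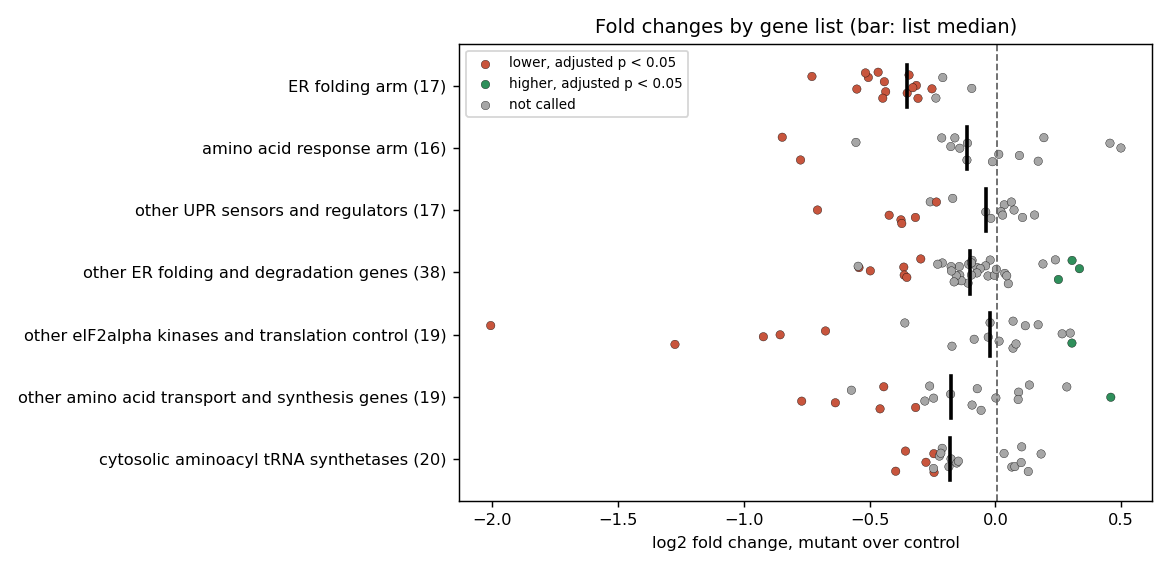
Log2 fold change of every tested gene by list, with the number tested in brackets; red and green mark genes called lower and higher, the black bar is the median of the list and the dashed line the median of all tested genes. The ER folding arm has its median at -0.35 and the other lists lie between -0.18 and -0.02.

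Genes around eIF2alpha and ATF4 outside the set included several of the larger falls. Of 19 genes 5 fell, 26.3%, and 1 rose, 5.26%, with a median of -0.02, against 9.13% lower and 8.63% higher over all genes tested. Cebpg, a binding partner of ATF4, fell from 54.1 ± 5.27 to 28.6 ± 2.37 CPM (-0.92, edgeR adjusted p = 0.000153), the mTORC1 inhibitor gene Ddit4 by 0.68 and the secreted factor gene Stc2 by 0.86. The stress hormone gene Gdf15, chosen after its values were seen, fell by 1.27 on the log2 scale at a level of 3.51 ± 0.221 CPM in controls. The largest fall of the list was in Fgf21 (-2.005, edgeR adjusted p = 0.0115), which had only 2 to 21 counts per library. The single rise (Eif2b2, a subunit of the exchange factor of eIF2) lost its call when control 2, control 3, mutant 2 or mutant 3 was left out, and with DESeq2.

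Amino acid transport and synthesis genes outside the set also held falls. Of 19 genes 5 fell, 26.3%, and 1 rose, 5.26%, with a median of -0.18. For this list and the next, the shares over all genes tested were 9.13% lower and 8.63% higher. Slc38a2, the carrier known for its induction on amino acid shortage, fell from 473 ± 68.7 to 277 ± 18 CPM (-0.77, edgeR adjusted p = 0.000876) and the branched-chain transaminase gene Bcat1 by 0.64. The rise (Shmt1) lost its call when control 1, control 2, mutant 2 or mutant 3 was left out. Of 20 cytosolic aminoacyl tRNA synthetases, which charge tRNAs and are in part ATF4 targets, 5 fell, 25%, and none rose, with Iars at -0.40, Tars at -0.36 and Wars at -0.28 and a median of -0.18. That count was 2 without any 1 control library or mutant replicate 2, 3 without mutant replicate 1, and 1 without mutant replicate 3. Wars lost its call in 9 of 14 alternatives and Tars when control 3 or mutant 3 was left out. None of these lists was tested against the others.

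Markers of some other cell types moved with the groups as well. Among all genes tested 17.8% were called, 8.63% as higher and 9.13% as lower. The called shares of the adipocyte (20%), Schwann cell and melanocyte (14.3%) and pericyte (18.2%) markers were near that. Of 10 skeletal muscle and satellite cell markers 9 rose, and their summed level was 63.0 to 91.4 CPM in controls and 187 to 289 CPM in mutants. Of 8 endothelial markers 4 rose (143 to 178.5 against 248.5 to 347 CPM), and of 7 keratinocyte and hair follicle markers 4 rose (391 to 671 against 821 to 1018 CPM), although epidermis and hair follicles were removed before the sort. Of 5 tested mast cell markers 3 rose and 1 fell (79.4 to 97.2 against 106 to 124 CPM). Among 5 tested adipocyte markers 1 rose, Fabp4, which lost its call when control 1, control 2 or mutant 3 was left out (149 to 229 against 246 to 546 CPM), among 7 Schwann cell and melanocyte markers 1 fell (200.4 to 294 against 137 to 204 CPM), and among 6 tested leukocyte markers none was called (89.2 to 214 against 119 to 146 CPM). The T cell marker Cd3e, the mast cell marker Fcer1a and the adipocyte hormone gene Lep were at 0 in at least 3 libraries each. Among the genes with the smallest adjusted p in these lists were Cdh15, Lyve1, Krt15, Tpsb2, Fabp4 and Cd68, and Kcnj8 among the pericyte markers, of which 2 rose. The part of these markers in the lower level of the ER folding genes was not tested.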

How the data were processed

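RNA-seq read counts were analysed for 3 control and 3 mutant libraries, 1 mouse each per the labels' protocols. The authors deposited whole-number counts per gene, and the submitters' processing notes name the build mm9 and list DESeq2, HTSeq 0.5.3, TopHat2 2.0.4, cutadapt 1.1 and FastQC. Roles and the strand setting of the counting are not stated there. The 5 rows that name no gene (36.9% to 41.7% of listed reads) were left out. Symbols were matched for 32919 of 37991 rows (GENCODE M21, GRCm38, used for names, exon lengths and overlaps only). Promoters came from RefSeq on GRCm38.p6, matched by symbol.

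CPM were scaled by TMM. Genes were filtered with filterByExpr (minimum count 10, minimum total 15) and tested with edgeR 4.0.16 (R 4.3.3) by the robust quasi-likelihood F test on group alone, with Benjamini-Hochberg adjustment over 15035 genes and calls at 0.05. A prior count of 2 was used for log2 CPM. Exact permutation of 3 against 3 libraries cannot go below p = 0.1. Libraries of 1 group differed by more than counting noise (chi-square per degree of freedom 4.73 to 13.3). Alternatives were other scalings and filters, DESeq2 1.42.0, limma-voom (limma 3.58.1), the replicate number as a block and each library left out. The fitting was tested on simulated data.

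Members, lists and tests were chosen with earlier results of these data known. Given by library were called members, the transcription factors and the 3 most abundant members per length in each arm; from other lists came up to 3 called genes with the smallest adjusted p, or 1 gene per marker list. Some genes that this rule names are not reported here.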

Additional observations from a re-analysis of the deposited data

How the results depend on the processing

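The ER folding arm had 13 to 15 lower genes and the amino acid response arm 2 under the 8 alternatives that kept all libraries, and DESeq2 added 1 higher gene (Atf3) to the latter. With 1 library left out, the lower ER folding genes numbered 6 to 14 and the lower amino acid response genes 2, and no gene of either arm was called higher. All 17 ER folding fold changes stayed negative in all 14 alternatives. With 1 library left out the arm means differed (mutant minus control) by -0.4604 to -0.3389 (ER folding), -0.1111 to -0.05646 (amino acid response) and -0.3493 to -0.2824 (difference between arms). Over all genes, leaving out 1 library gave 658 to 1199 higher and 753 to 1500 lower, with the lowest counts without mutant replicate 3. For the other lists the ranges were 1 to 5 lower sensors and regulators, 3 to 7 lower and 0 to 1 higher folding and degradation genes, 5 lower and 0 to 1 higher genes around eIF2alpha, 4 to 6 lower and 0 to 1 higher amino acid genes, and 1 to 3 lower synthetases.

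Lower sensors and regulators numbered 3 with upper quartile scaling and with DESeq2, and higher folding genes 1 with DESeq2. Higher genes around eIF2alpha numbered 2 with upper quartile scaling and with no filter and 0 with DESeq2, and lower ones 3 at a mean of at least 5 CPM, where low genes were not tested. Lower synthetases numbered 2 with upper quartile scaling and 3 with DESeq2, limma-voom and the replicate block. The cause of these changes was not tested, apart from the genes untested at 5 CPM. Signs turned in 3 uncalled genes. The log2 fold change of Slc7a5 was 0.0158 with upper quartile scaling and -0.09133 to 0.05641 with 1 library left out, that of Slc7a11 -1.008 to 0.6273, and that of Cth -0.00756 with DESeq2 and -0.2045 to 0.3724. The titles number both groups 1 to 3, while the deposited files number the mutants 2 to 4, so which numbers match is uncertain. Libraries with the same number by title had deviations correlated at 0.117, -0.0293 and -0.0866. By file number the shared pairs would be control 2 with mutant 1 (-0.0574) and control 3 with mutant 2 (0.158, the highest of all pairs). Pairing was not established by either, and with the replicate block by title 15 ER folding and 2 amino acid response genes were lower. At 3 libraries a group, Trib3, Cth and Chac1 had too few counts to show modest differences.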

Other observations

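Outside the 34 genes, 30 genes had an ERSE match in the promoter window, and 10 of them were tested. Of these, 1 fell (the ubiquitin ligase gene Syvn1, log2 fold change -0.36), 1 rose (Spats2l, 0.46) and 8 were not called, with a median of 0.01. Over all genes tested 9.13% fell and 8.63% rose, so these counts lie near the background. Of 74 tested genes outside the set with TTGCATCA, 9 fell (12.2%) and 4 rose (5.41%), with a median of 0.02. Of 114 with TGACGTGG, 14 fell (12.3%) and 6 rose (5.26%), with a median of -0.05. These sets were formed after the values of the 34 genes had been seen, and they were not tested against other genes.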
